A study of Mus musculus with 6 samples.

Results

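The immunity-related GTPases (IRG family) were followed through 7 genes of the mouse table: the effectors *Iigp1*, *Tgtp1*, *Tgtp2* and *Ifi47* and the regulators *Irgm1*, *Irgm2* and *Igtp*. The members were taken by gene name, and all 7 were found among the 54532 genes listed. The libraries were 3 from primary macrophages of mice labelled METRNL KO (KO) and 3 from primary macrophages of WT mice (WT), each after 6 h of culture with *Candida albicans*, a yeast-forming fungus. Challenge with the fungus is common to all 6 libraries, so the comparison addresses what goes with the *Metrnl* genotype during the challenge. Strain, age, tissue of origin, deleted exons and the source of each replicate (mouse or dish) are not in the labels used here. P-values therefore measure only how far these libraries scatter, and that scatter may be technical.

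IRG proteins are GTPases that interferons switch on in mouse cells and that defend the cell from within against parasites and bacteria living in vacuoles. Effector members have the usual lysine of the GTP-binding loop, and in cells infected with *Toxoplasma* or *Chlamydia* they gather on the membrane around the pathogen and break it. Regulator members, the IRGM proteins, have methionine at that place, sit on the cell's own membranes such as Golgi, lysosomes and lipid droplets, and hold the effectors in the inactive form. Interferon-gamma acts on genes that carry a gamma-activated sequence and, through IRF1, on those that carry an interferon-stimulated response element. Type I interferons act mainly on the same kind of response element.

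The 7 members were all lower in KO, and the 6 that could be tested passed the test. *Iigp1* was almost absent from KO, at 0.71% of its WT mean, and the near-identical pair *Tgtp1* and *Tgtp2* stood at 7.65% and 8.14%. *Ifi47* and the 3 regulators kept more, at 26.5% for *Ifi47*, 29.5% for *Irgm1* and 22.9% for *Igtp*, and *Irgm2* was 2.44-fold lower. As background, 12.4% of the 11689 genes tested were called lower in KO and 15.7% higher, and all 3 KO values lay below all 3 WT values for 19.9% of them. That is 1445 genes lower and 1833 higher, a split that became 1161 lower and 542 higher in TPM (FPKM rescaled to the same total in each library).

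The promoters of 4 members share a short block in which both kinds of site lie side by side, but the low level in KO was not limited to these 4. RefSeq promoter windows (GRCm38.p6, 250 bases before to 50 after the gene start) were found for 6 of the 7 members. Capitals mark a match to TTCNNNGAA, the core of the gamma-activated sequence, followed after 2 bases by a match to the core of the interferon-stimulated response element (GAAA, any 2 bases, GAAA), on the strand of the gene. For *Irgm1* the capitals mark 2 overlapping matches to the response element core.
Tgtp1, chr11:48992306-48992342, minus strand: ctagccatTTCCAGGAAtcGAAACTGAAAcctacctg
Tgtp2, chr11:49064265-49064301, minus strand: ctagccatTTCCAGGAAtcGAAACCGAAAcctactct
Irgm2, chr11:58214894-58214930, plus strand: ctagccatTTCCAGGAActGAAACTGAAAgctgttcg
Igtp, chr11:58199503-58199539, plus strand: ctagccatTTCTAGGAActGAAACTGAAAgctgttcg
Irgm1, chr11:48871427-48871458, minus strand: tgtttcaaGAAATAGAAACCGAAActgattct

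The response element core began 77 bases before the gene start in *Tgtp1*, 70 in *Tgtp2*, 64 in *Irgm2* and 34 in *Igtp*. These are the RefSeq starts, and those of *Tgtp1*, *Irgm2* and *Irgm1* lie inside the longer spans deposited for these genes. Both strands were searched. Of all 32851 promoter windows 3.44% held the response element core, 8.30% held TTCNNNGAA and 0.131% held both within 10 bases of each other, a spacing chosen after the sequences were seen. The *Irgm1* window held no TTCNNNGAA and the *Ifi47* window neither motif. A match is a description of letters and was not tied to binding in these cells.

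*Metrnl* itself (chromosome 11, 121701544 to 121716306) stood at 51.2, 63.6 and 62.8 FPKM (fragments scaled to gene length and library size, as deposited) in KO replicates 1 to 3 and at 93.5, 63.2 and 69.8 FPKM in WT replicates 1 to 3. Its groups overlapped and the difference did not pass (limma, adjusted p = 0.181), and a per-gene value cannot show which exons were present, so the genotype labels were not checked by it. Depth, as reads recovered from the FPKM values, was 11026529 to 15724897 per library. Replicate 1 of each group stood apart: chi-square per degree of freedom over genes was 39.6 to 59.4 for pairs with a replicate 1 library, against 2.30 for KO replicates 2 and 3 and 7.10 for WT replicates 2 and 3. Of 10 macrophage markers 5 were higher in KO and 1 was lower, and all 10 had a level above 0 in every library. The labels' extraction text speaks of retinas, but 12 retina markers summed to 0.993 to 1.44 FPKM in KO and 0.785 to 1.04 FPKM in WT.

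Many markers of other cell types, but not all, were unequal between the groups. All 8 B cell markers that could be tested were lower in KO, and the list of 10 summed to 15.4 to 21.2 FPKM in KO against 345 to 421 FPKM in WT. Of 5 tested T and NK cell markers 5 were lower (*Cd3d*, *Lck*, *Trbc2*, *Trac* and *Cd4*). The list of 12 summed to 3.70 to 4.82 FPKM in KO against 12.8 to 15.8 FPKM in WT. The NK cell genes *Ncr1* (6 reads over KO and 7 over WT) and *Klrb1c* (0 and 3) were too low to be tested. So were *Nkg7* (5 and 18 reads) and *Gzma* (4 and 20). NK cells were therefore not addressed by the tested markers. Of 8 tested dendritic cell markers 6 were lower, with 27.1 to 37.7 FPKM in KO against 99.6 to 164 FPKM in WT for the list of 10. Most of that sum was *Ccr7* (on average 13.8 FPKM in KO and 60.5 FPKM in WT) and *Fscn1* (11.8 and 64.1 FPKM). *Xcr1*, at 3.42 FPKM in KO and 2.58 FPKM in WT, and *Clec9a*, at 0.507 and 0.806 FPKM, did not pass (limma, adjusted p = 0.149 and 0.14). Of 8 tested neutrophil markers 2 were lower and 0 higher, and the list summed to 701 to 775 FPKM in KO against 945 to 1256 FPKM in WT. Most of that gap was *S100a8*, which averaged 361 FPKM in KO and 734 FPKM in WT. The other marker called was *Mmp8* (25.0 and 60.3 FPKM). *S100a9*, at 304 FPKM in KO and 297 FPKM in WT, did not pass (limma, adjusted p = 0.744). No B cell or dendritic cell marker was at 0 in all libraries of a group. In bulk RNA, fewer cells of a type and less RNA per cell cannot be told apart, and the part of these cells in the IRG values was not tested.

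*Iigp1* (ENSMUSG00000054072, chromosome 18, 60376029 to 60392627, plus strand, protein coding) encodes the effector first known as an interferon-inducible GTPase that coats the *Toxoplasma* vacuole. It had 0.125, 0.0406 and 0 FPKM in KO replicates 1 to 3, against 6.73, 9.23 and 7.40 FPKM in WT replicates 1 to 3. These are 7 reads over the KO libraries and 965 over the WT libraries. Every KO library was near 0 and every WT library was far above it, and the pooled reads put KO at 0.671% of WT with a 95% counting interval of 0.269% to 1.39% (exact binomial, covering counting error only). On the scale of log2(FPKM + 1), the difference (KO minus WT) was -3.05 ± 0.12 (SE; limma, adjusted p = 6.70e-05). That scale understates the change of low genes, so the percentages carry the size.

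*Tgtp1* and *Tgtp2* encode T-cell-specific GTPases, effectors that also load onto the *Toxoplasma* vacuole. *Tgtp2* (chromosome 11, 49057194 to 49064206, minus strand) had 0.585, 0.194 and 0.136 FPKM in KO and 2.95, 4.77 and 3.53 FPKM in WT. It fell by 1.86 ± 0.19 on the log2 scale (SE; limma, adjusted p = 0.00141). *Tgtp1* (chromosome 11, 48985327 to 48994172, minus strand) had 0.0976, 0.0198 and 0.0416 FPKM in KO and 0.584, 0.795 and 0.698 FPKM in WT, from 7 and 88 reads. The groups of neither gene overlapped. *Tgtp1* had a mean below the filter of 0.5 FPKM and was not tested. With no filter on low values its log2 difference of -0.68 passed (limma, adjusted p = 0.0088; 4.17% of 28477 genes were then called lower).

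The pair cannot be separated with confidence. Of the distinct 50-base stretches in the GENCODE M21 transcripts of *Tgtp1*, 79.4% also occur in *Tgtp2*, and 85.8% of those of *Tgtp2* occur in *Tgtp1*. How the authors placed reads matching both genes is unstated in the labels. The level of *Tgtp2* above *Tgtp1* is therefore uncertain, while the low level in KO was common to both.

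*Ifi47* (ENSMUSG00000078920, chromosome 11, 49076587 to 49096974, plus strand) is the effector whose KO level was closest to WT in percent. It had 7.68, 3.38 and 3.32 FPKM in KO and 11.3, 21.7 and 21.3 FPKM in WT. KO replicate 1 and WT replicate 1 were the closest values of the 2 groups, which did not overlap. The log2 difference was -1.75 ± 0.35 (SE; limma, adjusted p = 0.0148). *Ifi47* lies within the annotated span of *Olfr56* on the same strand, which averaged 0.224 FPKM in KO and 1.42 FPKM in WT, and 2.54% of its 50-base stretches are shared with that gene.

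*Irgm1* (ENSMUSG00000046879, chromosome 11, 48861968 to 48871683, minus strand) encodes the regulator best known for a role in autophagy, mitochondrial quality and survival of mycobacterial infection in mice. It had 8.65, 3.93 and 2.72 FPKM in KO and 14.3, 17.9 and 19.7 FPKM in WT. All KO values lay below all WT values, and KO replicate 1 was the highest of its group. *Irgm1* fell by 1.69 ± 0.34 on the log2 scale (SE; limma, adjusted p = 0.0148). With 1240 reads in KO and 3993 in WT it was the most deeply read member.

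*Igtp*, also known as IRGM3, is a regulator found on the endoplasmic reticulum and lipid droplets. It had 5.37, 1.54 and 1.42 FPKM in KO and 8.36, 14.6 and 13.4 FPKM in WT. Its groups did not overlap and its log2 difference was -1.91 ± 0.41 (SE; limma, adjusted p = 0.0176). *Irgm2*, a Golgi-associated regulator, had 4.72, 2.03 and 1.65 FPKM in KO and 5.22, 7.87 and 7.40 FPKM in WT. KO replicate 1 lay just under WT replicate 1, and the log2 difference of -1.11 ± 0.31 was the smallest of the 6 tested members (SE; limma, adjusted p = 0.0388). With no filter on low values the adjusted p of *Irgm2* was 0.0913. *Igtp* (chromosome 11, 58199556 to 58207591) and *Irgm2* (58199618 to 58222782) are annotated on the same strand with 7974 bases in common, and 11.8% of the 50-base stretches of *Igtp* occur in *Irgm2*, so part of their reads may be divided between them.

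The calls of *Iigp1* and *Tgtp2* were kept when any 1 library was left out. Those of *Ifi47*, *Igtp* and *Irgm2* were lost without KO replicate 2 (adjusted p = 0.0558, 0.0626 and 0.12), KO replicate 3 (0.0548, 0.0586 and 0.109), WT replicate 2 (0.056, 0.0648 and 0.12) or WT replicate 3 (0.0564, 0.0633 and 0.113), and that of *Irgm1* without KO replicate 2 (0.0568), WT replicate 2 (0.0542) or WT replicate 3 (0.0567), all with limma. The direction stayed negative in each of these fits.

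**Figure D1:**
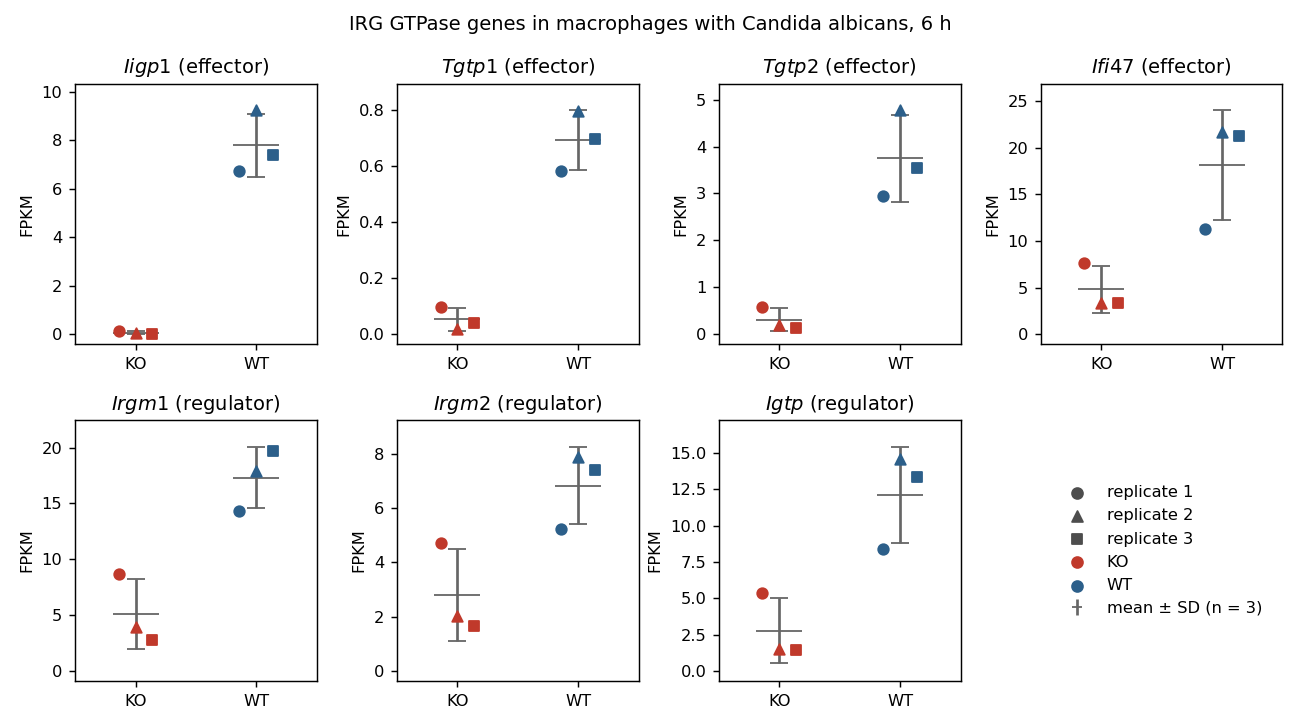
FPKM of each of the 7 IRG members (vertical axis, 1 panel a gene) in the 3 KO libraries at the left and the 3 WT libraries at the right of each panel, with mean ± SD (n = 3 each). All KO points lie below all WT points in every panel, and replicate 1 (circle) is the highest of the KO points and the lowest of the WT points in all 7.

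Replicate 1 had the same place in each member. In 7 of 7 members KO replicate 1 was the highest KO library and WT replicate 1 the lowest WT library, an order held by 21.9% of all genes tested and 29.8% of genes called lower. Summed over the members, the level was 27.2, 11.1 and 9.28 FPKM in KO replicates 1 to 3 and 49.5, 76.9 and 73.4 FPKM in WT replicates 1 to 3. *Irgm2* stood at 69.1%, 29.7% and 24.1% of the WT mean in KO replicates 1 to 3, and *Igtp* at 44.4%, 12.7% and 11.7%. Without both replicate 1 libraries KO stood at 17.7% of WT for *Irgm1*, 10.6% for *Igtp*, 24.0% for *Irgm2* and 15.6% for *Ifi47*. That each was then further below WT than over all 6 libraries follows from the place of replicate 1. *Iigp1* was low in every KO library, at 1.61%, 0.521% and 0% of the WT mean.

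Levels per gene length also set the members in order within a group. In KO the order was *Irgm1* (5.10 ± 3.13 FPKM), *Ifi47* (4.79 ± 2.50), *Irgm2* (2.80 ± 1.68), *Igtp* (2.78 ± 2.25), *Tgtp2* (0.305 ± 0.244), *Iigp1* (0.0553 ± 0.0639) and *Tgtp1* (0.0530 ± 0.0401; SD, n = 3 each). In WT it was *Ifi47* (18.1 ± 5.88 FPKM), *Irgm1* (17.3 ± 2.72), *Igtp* (12.1 ± 3.29), *Iigp1* (7.79 ± 1.29), *Irgm2* (6.83 ± 1.41), *Tgtp2* (3.75 ± 0.929) and *Tgtp1* (0.692 ± 0.106; SD, n = 3 each). Neighbours whose values did not overlap were *Igtp* and *Tgtp2*, and *Tgtp2* and *Iigp1*, in KO, and *Irgm2* and *Tgtp2*, and *Tgtp2* and *Tgtp1*, in WT. All other neighbours overlapped in their values. *Iigp1* thus stood in the middle of the order in WT and near its end in KO.

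Effectors made up less of the IRG transcript pool in KO. They summed to 8.49, 3.64 and 3.50 FPKM in KO replicates 1 to 3 and to 21.6, 36.5 and 32.9 FPKM in WT replicates 1 to 3. Regulators summed to 18.7, 7.49 and 5.79 FPKM in KO and to 27.9, 40.4 and 40.4 FPKM in WT. The effector share of the summed level was 33.8% ± 3.40 in KO and 45.3% ± 1.97 in WT (SD, n = 3 each), and the groups did not overlap. That separation rested on *Iigp1*, which was 10.1% to 13.6% of the summed level in WT and at most 0.460% in KO. With *Iigp1* left out, the groups overlap, as the effector share of KO replicate 3 is then above that of WT replicate 1. Most of the effector sum in KO was *Ifi47*. Without it, the other 3 effectors came to 3.59 ± 0.641 FPKM for every 100 FPKM of regulators in KO and to 34.1 ± 4.59 in WT (SD, n = 3 each). These shares are descriptions of the chosen members, with no test. By class, the 3 tested effectors had a median log2 difference of -1.86 and the 3 regulators of -1.69, beside 0.03 over all genes tested. *Ifi47*, at -1.75, lay among the regulators, whose values were -1.91 to -1.11.

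**Figure D2:**
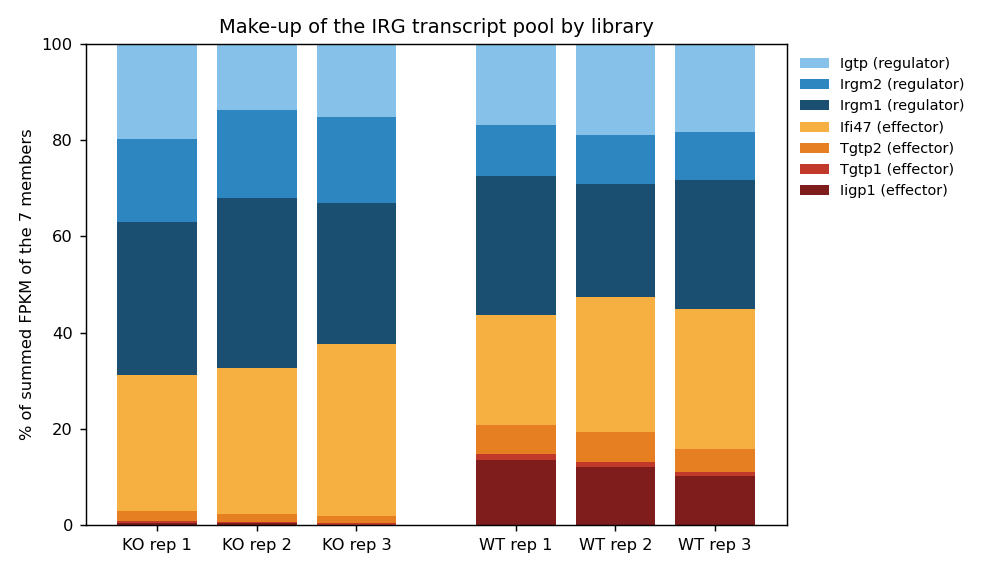
Each member's percent of the summed FPKM of the 7 members (vertical axis) in each KO library (left) and WT library (right), effectors in warm colours below and regulators in blue above. The effector part is 33.8% on average in KO and 45.3% in WT, and the *Iigp1* band seen in WT, 10.1% to 13.6%, shrinks to at most 0.460% in KO.

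Other genes of the family were listed too. Of 12 further IRG names 9 were in the table and 7 were tested, of which 5 were lower in KO and 0 higher. *Gm12250* (chromosome 11, 58187739 to 58189012), known in mouse as Irgb10 and annotated in the table as a processed pseudogene, had 2.27, 0.796 and 0.576 FPKM in KO and 5.24, 7.53 and 10.3 FPKM in WT. It fell by 2.01 ± 0.33 on the log2 scale (SE; limma, adjusted p = 0.0075). Its RefSeq window, which lies upstream of the table's start for this gene, held the same pair of motifs within 10 bases. Of the 4 other windows found for further IRG genes, that of *9930111J21Rik1* held the response element core but no TTCNNNGAA, and those of *9930111J21Rik2*, *Gm5431* and *Irgq* held neither. The tandem genes *9930111J21Rik1* and *9930111J21Rik2*, which share 80.4% and 56.1% of their 50-base stretches with each other, were 4.12-fold and 2.69-fold lower in KO (limma, adjusted p = 0.0267 and 0.00751). The call of *9930111J21Rik1* was lost with no filter on low values, under quantile normalization and when any 1 library other than WT replicate 1 was left out (limma, adjusted p = 0.0598 to 0.0867).

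A pair of relatives did not pass over all 6 libraries. *Irgq*, a family member without the usual GTP-binding residues, had 7.12, 5.29 and 4.65 FPKM in KO and 4.85, 5.18 and 5.45 FPKM in WT, with a log2 difference of 0.10 and a 95% confidence interval of -0.23 to 0.44 (limma, adjusted p = 0.627). *Irgc1*, known for expression in testis, had 1.73, 2.71 and 2.24 FPKM in KO and 2.14, 0.939 and 1.51 FPKM in WT (log2 difference 0.37, 95% confidence interval -0.12 to 0.85; limma, adjusted p = 0.222). Without both replicate 1 libraries *Irgc1* was called higher in KO (log2 difference 0.65; limma, adjusted p = 0.0404). Both lie on chromosome 7. *Gm5431* and *Gm12185* were below the filter, at 0.191 and 0.0329 FPKM on average in KO and at 0.796 and 0.118 FPKM in WT.

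**Figure D3:**
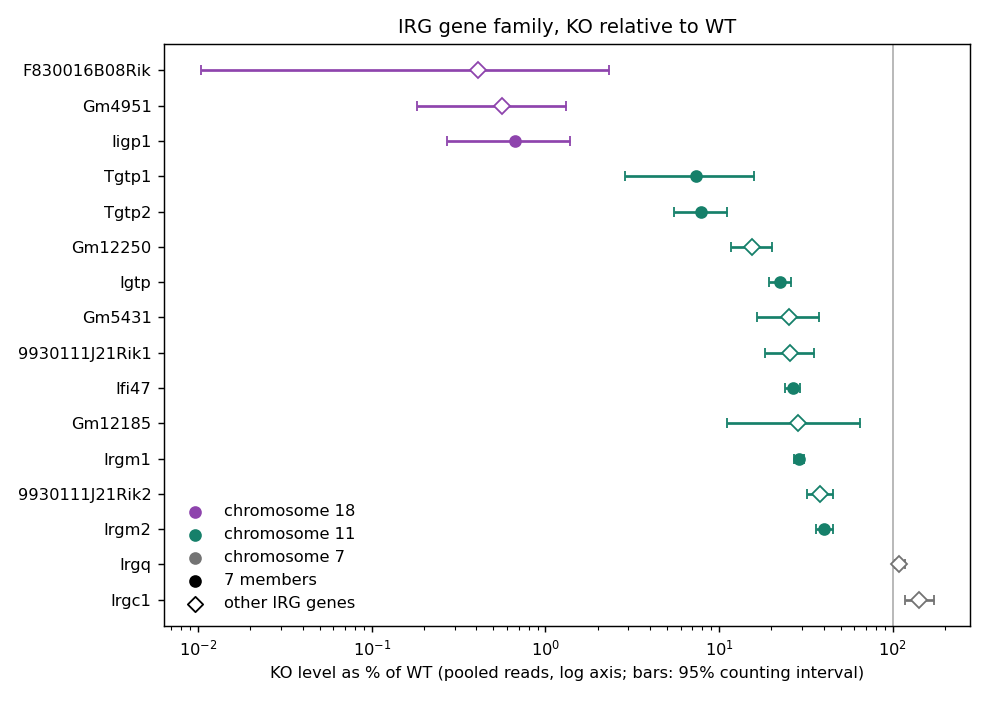
KO level as percent of WT from pooled reads (horizontal log axis, with 95% counting intervals) for the 7 members (circles) and 9 further IRG genes (diamonds), coloured by chromosome. The 3 genes of chromosome 18 lie between 0.411% and 0.671%, those of chromosome 11 between 7.36% and 40.3%, and those of chromosome 7 at 109% and 142%.

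The IRG genes of chromosome 18 stood apart from those of chromosome 11. *Gm4951* (60212080 to 60247820) had 0.0591, 0.0240 and 0.0505 FPKM in KO and 6.58, 7.42 and 9.57 FPKM in WT, from 5 reads over KO and 827 over WT (limma, adjusted p = 8.09e-05). *F830016B08Rik* (60293380 to 60303016) had 0.0237, 0 and 0 FPKM in KO and 1.17, 2.09 and 1.99 FPKM in WT. It rested on 1 read over KO and 225 over WT, which puts KO at 0.411% of WT with a counting interval of 0.0104% to 2.32%. In KO replicate 1, where the chromosome 11 members stood at 14.1% to 69.1% of their WT means, *Iigp1*, *Gm4951* and *F830016B08Rik* stood at 1.61%, 0.752% and 1.36%.

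Every row of the table that starts within 200 kb of *Iigp1* was then read, a window chosen after these values were seen. The pseudogene *Gm5970* (60220843 to 60222058) had 2 reads over KO and 313 over WT, and *Gm4841* (60268301 to 60273267) had 0 over KO and 32 over WT. The pseudogenes *BC023105* (0 reads over KO and 5 over WT) and *Gm6960* (1 read in each group) were hardly read in either group. On the far side, *Smim3* (60474193 to 60501983) averaged 64.1 FPKM in KO and 55.8 FPKM in WT, *Dctn4* 6.79 FPKM in KO and 5.75 FPKM in WT, and *Rbm22* 7.84 FPKM in KO and 7.59 FPKM in WT, and none of the 3 passed (limma, adjusted p = 0.746, 0.181 and 0.797). The near-empty stretch in KO thus ran over the IRG genes and *Gm5970* and did not include those 3 genes. The labels used here give no strain for either group, so the *Metrnl* genotype and any difference in genetic background between KO and WT mice, at this stretch or elsewhere, cannot be told apart.

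**Figure D4:**
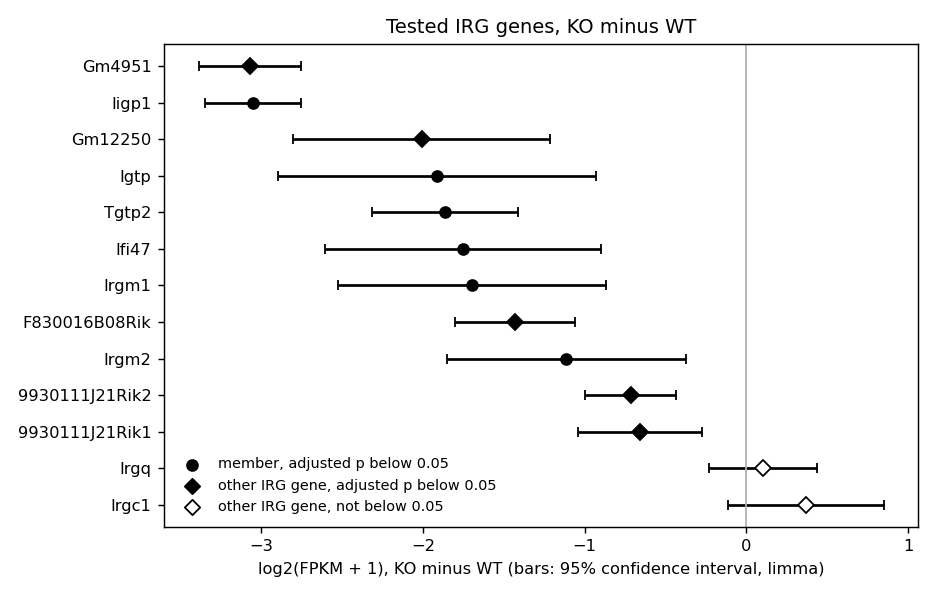
Log2 differences on the log2(FPKM + 1) scale, KO minus WT (horizontal axis), with 95% confidence intervals for the 6 tested members (circles) and 7 further IRG genes (diamonds), filled where the limma adjusted p was below 0.05. *Gm4951* and *Iigp1* lie near -3, and *Irgq* and *Irgc1* have intervals that include 0.

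Few of the interferon, receptor and kinase genes upstream in the pathway were called. Of the 20 interferon genes listed, 15 had no read in any library and 3 were tested, with 0 called (limma; 0 also at an unadjusted p below 0.05, and 0 with limma-voom on recovered reads). Without both replicate 1 libraries 1 was called lower, *Ifnb1* (log2 difference -0.91; limma, adjusted p = 0.00816). *Ifng* had 3.14, 0.587 and 0.361 FPKM in KO and 0.145, 1.90 and 0.925 FPKM in WT, and *Ifnb1* had 1.88, 0 and 0 FPKM in KO and 0, 0.793 and 0.959 FPKM in WT. For both, replicate 1 was the highest of the KO libraries and the lowest of the WT libraries, the same order as the IRG members. Of 7 receptors and kinases 2 were higher in KO and 0 lower, beside 15.7% of all genes tested called higher and 12.4% lower. Their median log2 difference was 0.08, beside 0.03 over all genes tested. *Ifngr1*, the ligand-binding chain of the interferon-gamma receptor, averaged 11.6 ± 0.229 FPKM in KO and 9.43 ± 0.683 FPKM in WT (SD, n = 3 each; limma, adjusted p = 0.0319). *Ifnar1*, a chain of the type I receptor, averaged 25.4 ± 3.15 FPKM in KO and 19.3 ± 1.45 FPKM in WT (limma, adjusted p = 0.0421). Both calls were lost in TPM, under quantile normalization and with no filter on low values, and at most 1 was kept when a library was left out, that 1 without WT replicate 2. *Ifnar2* and *Tyk2* did not pass (limma, adjusted p = 0.133 and 0.0708).

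Of 6 listed transcription factors of interferon-induced promoters 3 were lower in KO and 0 higher. *Irf1* had 14.9, 7.66 and 6.88 FPKM in KO and 22.5, 19.9 and 24.2 FPKM in WT (log2 difference -1.17 ± 0.26 SE; limma, adjusted p = 0.0213). Its groups did not overlap. *Stat2* fell by 1.29 and *Irf2*, which can repress interferon targets, by 0.30 on the log2 scale (limma, adjusted p = 0.02 and 0.0145). *Stat3* did not pass (limma, adjusted p = 0.105), nor did the remaining listed factors. The 3 calls became 1 with no filter on low values, 0 without KO replicate 2, KO replicate 3 or WT replicate 3, 1 without WT replicate 2 and 5 without KO replicate 1. Of 8 inhibitors of interferon signalling 1 was lower, a share near the 12.4% of all genes tested that were called lower. It was the phosphatase gene *Ptpn6* (log2 difference -0.40; limma, adjusted p = 0.0341). No inhibitor was called without KO replicate 2, KO replicate 3, WT replicate 2 or WT replicate 3. *Socs1*, the feedback inhibitor of interferon-gamma signalling, had 9.89, 3.99 and 3.40 FPKM in KO and 9.37, 16.3 and 20.9 FPKM in WT and did not pass (limma, adjusted p = 0.0552), nor did *Usp18* or *Ptpn11* (0.0972 and 0.212). *Socs1* was called lower under 8 of its 16 alternatives, among them TPM, limma-voom on recovered reads and omission of KO replicate 1 (adjusted p = 0.0226, 0.0289 and 0.0173), and *Usp18* without KO replicate 1 (0.0297).

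The guanylate-binding proteins, interferon-induced GTPases that act on the same vacuoles, were also mostly lower. Of 11 listed 6 were tested and 4 were lower in KO, with a median log2 difference of -1.38. *Gbp2* averaged 9.24 ± 4.04 FPKM in KO and 45.0 ± 5.21 FPKM in WT (SD, n = 3 each; limma, adjusted p = 0.00239), and *Gbp4*, *Gbp9* and *Gbp7* also fell (limma, adjusted p = 0.0026, 0.00475 and 0.0315). The call of *Gbp7* was lost with no filter on low values (adjusted p = 0.0759) and without KO replicate 2, KO replicate 3, WT replicate 2 or WT replicate 3 (limma, adjusted p = 0.0891 to 0.101), and 6 of the list were called without KO replicate 1. Of the 14 listed partners that mark vacuoles for IRG loading, mostly genes of the LC3 and GABARAP conjugation system, 5 were higher in KO and 0 lower. Over all genes tested, 15.7% were called higher and 12.4% lower. *Atg12* averaged 71.0 ± 2.46 FPKM in KO and 43.3 ± 2.47 FPKM in WT (limma, adjusted p = 0.00139), and *Atg5*, *Atg3* and *Gabarapl1* had log2 differences of 0.57, 0.48 and 0.50 (limma, adjusted p = 0.00554, 0.00306 and 0.031). The 5 calls became 2 in TPM, 3 under quantile normalization and 3 without any single KO library or without WT replicate 3. A call of lower for 1 gene of the list appeared in TPM, with limma-voom on recovered reads and without KO replicate 1 or WT replicate 1, among others.

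**Figure D5:**
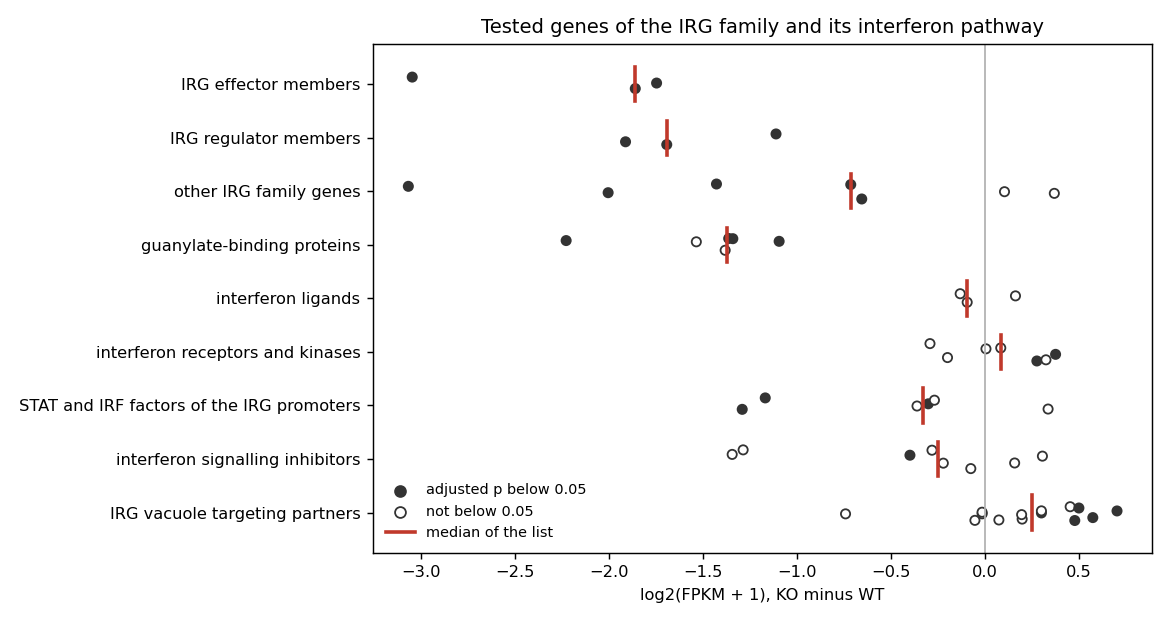
Log2 differences on the log2(FPKM + 1) scale, KO minus WT (horizontal axis), of every tested gene of 9 lists (rows), filled where the limma adjusted p was below 0.05, with each list's median as a red bar. The IRG and guanylate-binding protein rows lie left of 0 apart from *Irgq* and *Irgc1*, at medians from -1.86 to -0.72, while receptors and vacuole partners have medians of 0.08 and 0.25.

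The genes whose levels followed the members most closely were found by Pearson's r over the 6 libraries, on log2(FPKM + 1), with the mean standardized profile of the 6 tested members. *Tap1*, a peptide transporter of antigen presentation, came first at r = 0.999, with 8.96, 4.41 and 4.28 FPKM in KO and 17.1, 25.3 and 24.6 FPKM in WT. Next came *Rsad2* (viperin) at 0.999, *Ube2l6*, the ISG15-conjugating enzyme, at 0.999, and the nucleic acid sensor gene *Zbp1* at 0.996. *Ltb*, *Hdac7*, *Hspa8* and *Trim34a* completed the first 8, at 0.995, 0.995, 0.995 and 0.994. These values are descriptions: the libraries fall into 2 genotypes, and 212 of 1362 variable genes compared reached an r of at least 0.95.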

How the data were processed

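Total RNA of macrophages from KO and WT mice was sequenced, 3 libraries each, per the labels. The authors deposited 1 table of FPKM per Ensembl gene with its length. Per the submitters' processing notes, reads were placed on GRCm38 (mm10). Not given in the sources used here: aligner, counter, annotation release, strand setting. FPKM multiplied by length came out as whole multiples of a library-specific step in 100% of non-zero values (tolerance 0.05 of that step), taken as reads, 11026529 to 15724897 per library.

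The test was limma 3.58.1 (R 4.3.3) on log2(FPKM + 1), genotype only, eBayes with trend, over 11689 genes (mean FPKM 0.5 or more), with Benjamini-Hochberg adjusted p below 0.05 called. It was also run on simulated reads, but with the same relative spread for every gene and no replicate standing apart. That run therefore does not cover the replicate structure of these libraries. Percentages of WT are ratios of mean FPKM unless pooled reads are named. Intervals cover counting error only.

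Members and lists were chosen with earlier results of these data known. Named genes are the members, further IRG genes, up to 4 tested genes of each pathway list with the smallest p, and the 8 genes most like the members. Genes around *Iigp1* and *Olfr56* were named after their values were seen. Promoters came from RefSeq, transcripts from GENCODE M21. Protein sequences were not used here, and 1 gene of the transcription factor list is not reported here and was left out of its counts. Alternatives are given in the closing section.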

Additional observations from a re-analysis of the deposited data

How the results depend on the processing

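Over the 16 alternatives tried for each of the 6 tested members, no log2 difference changed sign. *Iigp1* ranged from -7.56 (limma-voom on recovered reads) to -2.93 and *Tgtp2* from -3.84 to -1.71, and both passed throughout. Of 6 members called lower, leaving out 1 library kept 2 to 6 and the replicate block kept 2. Same-numbered KO and WT libraries deviated in opposite ways (r = -0.505, -0.191 and -0.158), and no library correlated best with its own number. Deviations from a group mean are not independent, and replicate 1 stood apart in both groups. The labels state no pairing, and these correlations cannot settle whether the numbers pair the libraries. Over all genes, 1833 were called higher and 1445 lower. The block gave 479 and 604, TPM 542 higher, a mean of at least 2 FPKM 876 lower, and leaving out 1 library 912 to 1681 and 851 to 1337. The share of higher among all calls was 55.9% and became 31.8% in TPM. Over the pathway lists, 13 genes were called lower and 7 higher. No filter gave 8 and 3, the block 6 and 3, quantile normalization 3 higher, TPM 2 higher, array weights 21 lower, omission of both replicate 1 libraries 24 lower, and leaving out 1 library 7 to 19 and 3 to 6. Genes that did not pass and changed sign were *Ifng* (0.16 over all libraries, -0.26 with array weights, -0.69 without both replicate 1 libraries, -0.34 to 0.48 without 1 library). *Ifnk* gave 0.050 under quantile normalization and -0.29 to 0.018 without 1 library. *Irgq* gave -0.043 with array weights, -0.083 without both replicate 1 libraries and -0.046 to 0.22 without 1 library. *Ifnb1* gave -0.60 to 0.16 without 1 library. The cause was not tested. With 1 library left out, the mean effector share was 31.9% to 35.2% in KO and 44.2% to 46.2% in WT. Omitting 1 of 3 values always keeps a mean within 1 SD, and rescaling a library to TPM leaves its share unchanged. These alternatives therefore cannot test the effector share. Depth limits *Iigp1* and *Tgtp1* in KO, each at 7 reads.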
